A study of Mus musculus with 3 samples.

Results

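The cells described here are the Neurog3-positive cells of mouse small intestinal organoids, taken as candidate endocrine precursors. Neurog3 is a basic helix-loop-helix transcription factor that is switched on for a short time when a crypt progenitor commits to the enteroendocrine lineage. A cell was counted as Neurog3-positive if it held 2 or more unique molecular identifiers (UMIs, 1 per captured transcript) of Neurog3, at least 1000 and fewer than 8000 UMIs of all genes and at least 400 genes. Of 5913 cells within these limits, 88 were Neurog3-positive, namely 16 of 2545 in ENR, 63 of 2383 in ENR+CD and 9 of 985 in ENR+CV. They were compared with the 5589 cells of the same libraries in which no Neurog3 UMI was found, called Neurog3-free cells below. A cell without a UMI of a gene may still express it.

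In the intestinal crypt, Notch signalling holds progenitors in the absorptive or stem state through Hes1, a repressor of secretory fate genes. A cell that escapes Notch turns on Atoh1 and enters the secretory branch, from which Paneth, goblet and enteroendocrine cells arise. Neurog3 then drives the endocrine branch through a cascade of factors such as Neurod1, Pax4, Insm1 and Nkx2-2, the cell leaves the cell cycle, and Neurog3 is shut off again while hormones, granins and secretory vesicles accumulate.

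The organoids were grown from crypts of the proximal small intestine of C57BL/6 mice of 3 to 6 months, and single cells were profiled by Seq-Well, in which cells settle into nanowells with barcoded capture beads. ENR is the basal medium, with EGF, Noggin and R-spondin 1. ENR+CD adds CHIR99021 at 3 µM, an inhibitor of GSK3 that raises Wnt activity. It also adds DAPT (10 µM), which inhibits gamma-secretase and so the cleavage of Notch. ENR+CV adds CHIR99021 at 3 µM and valproic acid at 1 mM, a histone deacetylase inhibitor used to hold stem cells. All organoids were first expanded in ENR+CV, cells came from 6 wells and 1 donor per condition at day 6, and each condition is 1 library. Conditions could therefore not be tested against each other, cells are not replicates, and every interval in the text covers counting error only.

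The kept cells hold 5095089, 4538388 and 2942252 UMIs in ENR, ENR+CD and ENR+CV. The single-library tables for ENR+CD and ENR+CV sit under each other's sample label. All 2506 merged ENR+CD cells and all 1092 merged ENR+CV cells were found identical in the table under the other label, and the merged table's names were used. Of the kept cells, 1 barcode was shared between ENR and ENR+CD, in no Neurog3-positive cell, and 0 positive cells had a barcode 1 base away from another cell of their library. No doublet caller was run and no cell was removed as a doublet.

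Neurog3 lies on chromosome 10 at 62133090 to 62134763 (GRCm38, plus strand), Neurod1 on chromosome 2 at 79452521 to 79456751 (minus strand) and Nkx2-2 on chromosome 2 at 147177546 to 147194243 (minus strand). The stretches before their RefSeq starts are shown because basic helix-loop-helix factors such as Neurog3 and Neurod1 bind E-boxes, CANNTG, and these are the gene that defines the cells and 2 of the factors that were high in them. Gadd45a, a growth arrest gene with a high ratio, is shown beside them. For Neurog3 all 250 bases before the start are printed. The others are cut at the first base of an annotated exon. They hold the 101 (Neurod1), 197 (Nkx2-2) and 200 (Gadd45a) bases of that window farthest from the start, so their printed ends do not reach it. The RefSeq start used for Nkx2-2 lies inside the span given above, which begins at an earlier start in GENCODE. The sequences are from RefSeq (GRCm38.p6), 5′ to 3′ on the strand of the gene, and capitals mark each CANNTG:
Neurog3 (chr10:62132840-62133089, plus): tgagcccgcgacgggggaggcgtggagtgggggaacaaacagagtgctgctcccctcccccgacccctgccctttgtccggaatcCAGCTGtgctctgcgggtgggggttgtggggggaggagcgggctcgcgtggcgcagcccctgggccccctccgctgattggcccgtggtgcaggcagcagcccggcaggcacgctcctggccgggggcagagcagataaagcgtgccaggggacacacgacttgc
Neurod1 (chr2:79456786-79456886, minus): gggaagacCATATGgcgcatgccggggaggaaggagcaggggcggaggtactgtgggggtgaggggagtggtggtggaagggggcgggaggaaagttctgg
Nkx2-2 (chr2:147186456-147186652, minus): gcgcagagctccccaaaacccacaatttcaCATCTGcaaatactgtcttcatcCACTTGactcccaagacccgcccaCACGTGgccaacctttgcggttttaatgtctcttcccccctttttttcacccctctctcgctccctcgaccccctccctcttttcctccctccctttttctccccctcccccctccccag
Gadd45a (chr6:67037458-67037657, minus): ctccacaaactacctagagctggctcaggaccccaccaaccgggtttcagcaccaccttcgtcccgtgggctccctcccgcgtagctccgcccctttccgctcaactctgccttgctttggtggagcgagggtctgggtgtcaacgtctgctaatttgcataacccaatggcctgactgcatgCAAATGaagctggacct

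The E-box of Neurog3 reads CAGCTG and lies 165 bases before the start. Those of Neurod1 and Gadd45a lie at -242 and -67 bases from their starts. CANNTG reads the same on both strands and was present in 66.2% of 32851 RefSeq promoters over the 250 bases before the start, CAGCTG in 13.0% and CAGATG in 14.4%. Of the 11 endocrine transcription factors counted as higher below, 7 matched a promoter entry, and 5 of these 7 held CANNTG. A match is a description of the letters in these windows and not a binding site.

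Neurog3 transcripts were most frequent in ENR+CD, where 183 of the 441 Neurog3 UMIs lay in cells with 1 such UMI. The share of Neurog3-positive cells was 0.629% in ENR (exact Clopper-Pearson 95% interval 0.360 to 1.02), 2.64% in ENR+CD (2.04 to 3.37) and 0.914% in ENR+CV (0.419 to 1.73). At this threshold the ENR+CD interval lies above that of both other libraries. After each cell was thinned to 1000 UMIs, 1.43% of ENR+CD cells were positive (0.990 to 1.99), against 0.236% in ENR (0.0866 to 0.512) and 0.711% in ENR+CV (0.286 to 1.46), so the ENR+CD interval then overlapped that of ENR+CV. It also did so at 3 or more Neurog3 UMIs, with 1.26% (0.851 to 1.79) against 0.812% (0.351 to 1.59). As UMIs summed over all kept cells and scaled to 1000000 UMIs (CPM), Neurog3 stood at 97.2 CPM in ENR+CD, against 19.2 in ENR and 29.2 in ENR+CV.

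The number of Neurog3 UMIs per positive cell differed between libraries, as the plot of all 88 cells shows. The ENR cells held a median of 2 and at most 7 Neurog3 UMIs, the ENR+CD cells a median of 2 and at most 32, and the ENR+CV cells a median of 8 and at most 19. Of the 63 ENR+CD cells, 33 lay just inside the threshold with exactly 2 UMIs, and another 183 cells lay just outside it with 1. In ENR 9 cells had 2 UMIs and 47 had 1, and in ENR+CV 1 cell had 2 and 6 had 1. Thus 45 of the 88 cells held 3 or more Neurog3 UMIs, namely 7, 30 and 8 in ENR, ENR+CD and ENR+CV. The 3 highest cells gave 17.2% of the 389 Neurog3 UMIs of the positive cells.

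**Figure D1:**
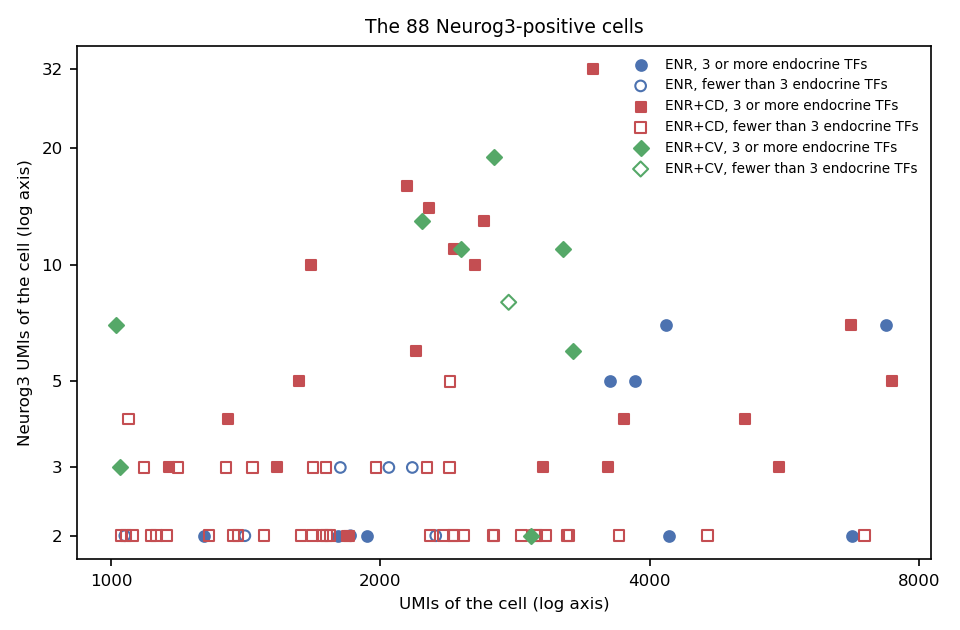
Neurog3 UMIs (log axis) against all UMIs (log axis) of each of the 88 Neurog3-positive cells, colored by library, with filled symbols for cells that held 3 or more of 22 endocrine transcription factors (TFs). All but 1 of the ENR+CV cells are filled and lie mostly above 5 Neurog3 UMIs, whereas the ENR+CD cells on the line of 2 UMIs are nearly all open.

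Low Neurog3 counts were also found in cells rich in Paneth transcripts. Paneth-rich cells, defined as cells with at least 30% of their UMIs on antimicrobial genes, held a Neurog3 UMI in 38 of 495 ENR+CD cells (7.68%), against 246 of all 2383 ENR+CD cells (10.3%), at median depths of 1664 and 1543 UMIs. At the threshold of 2 UMIs, 8 of the 495 Paneth-rich cells (1.62%, interval 0.700 to 3.16) were positive, against 2.64% of all ENR+CD cells, and these intervals overlap. At 3 or more UMIs, 0 of the 495 were positive, which allows a share of up to 0.742% by the Clopper-Pearson interval, against 1.59% (1.07 to 2.26) of the ENR+CD cells that were not Paneth-rich. In ENR, 2 of 65 Paneth-rich cells held a Neurog3 UMI and 0 held 2. In ENR+CV only 7 cells were Paneth-rich, and none of them held a Neurog3 UMI. Of the 495 Paneth-rich ENR+CD cells, 270 held 2 or more granin UMIs and 39 a Neurod1 UMI, so they are not free of endocrine transcripts. The part of free Neurog3 RNA in cells with 1 or 2 UMIs was not tested, and the main results below are also given for the 45 cells with 3 or more.

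Barcodes with fewer than 1000 UMIs, in which shallow cells and free RNA cannot be told apart, carried Neurog3 at 105 CPM in ENR+CD (93.8 to 118), 35.1 in ENR (27.7 to 43.9) and 6.18 in ENR+CV. Each Neurog3 UMI of the positive cells rested on 21.1, 30.8 and 11.0 reads in ENR, ENR+CD and ENR+CV, against 10.6 to 19.0 reads per UMI over all genes of the same cells. In ENR+CV, the 6 UMIs of the cells with 1 UMI rested on 1 read each. Neurog3 UMIs of positive cells thus had at least the read support of other genes in each library.

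Neurod1, a bHLH factor downstream of Neurog3 in the endocrine cascade, checks the label. It was found in 35 of the 88 cells. In ENR+CV 8 of 9 positive cells held a Neurod1 UMI, in ENR 6 of 16 and in ENR+CD 21 of 63. Within ENR+CD the cells on the threshold differed from those above it. A Neurod1 UMI was present in 12.9% of the 2137 Neurog3-free cells, in 36 of 183 cells with 1 Neurog3 UMI, in 3 of 33 cells with 2 (9.09%) and in 18 of 30 cells with 3 or more. In ENR the order was 2.94% of 2482 cells, 9 of 47, 4 of 9 and 2 of 7, and in ENR+CV 1.03% of 970 cells, 0 of 6, 1 of 1 and 7 of 8. By this marker the ENR+CV cells and the ENR+CD cells with 3 or more Neurog3 UMIs match the name endocrine precursor, whereas the 33 ENR+CD cells with exactly 2 go against it. In ENR, 4 of the 7 cells with 3 or more UMIs held neither Neurod1 nor 2 UMIs of the granins Chga and Chgb.

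The same split appeared over 22 other endocrine transcription factors (Neurod1 included, Sox4 left out because crypt progenitors express it, a choice made after the values were seen). At least 3 of the 22 were found in 19 of 30 ENR+CD cells with 3 or more Neurog3 UMIs (63.3%, 43.9 to 80.1), but in 2 of 33 cells with exactly 2 (6.06%) and in 6.64% of Neurog3-free cells. After thinning to 1000 UMIs per cell these were 14 of 30, 2 of 33 and 1.82%. In ENR at least 3 factors were found in 5 of 9 cells with 2 Neurog3 UMIs, in 4 of 7 cells with 3 or more and in 1.25% of Neurog3-free cells. Thinned, these were 2 of 9, 2 of 7 and 0.403%. In ENR+CV at least 3 factors were found in 8 of 9 positive cells and in 1.55% of Neurog3-free cells, and thinned in 5 of 9 and 0.412%. Among ENR+CD Paneth-rich cells the share was 2.22%. Cells with 3 or more of these factors were deeper than average, with median totals of 3295, 2487 and 3041 UMIs in ENR, ENR+CD and ENR+CV.

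Read from the other side, most cells with several endocrine factors were not Neurog3-positive. Of the cells with at least 3 of the 22 factors, 9 of 44 were Neurog3-positive in ENR (20.5%), 21 of 178 in ENR+CD (11.8%) and 8 of 23 in ENR+CV (34.8%). Neurog3-positive cells were also deeper than Neurog3-free cells, with medians of 2108 against 1549 UMIs in ENR, 2194 against 1523 in ENR+CD and 2676 against 2494 in ENR+CV. The part of depth in these shares was not tested beyond the thinning. The median share of mitochondrial UMIs was 17.4% in positive and 14.7% in Neurog3-free cells of ENR, 7.41% and 7.19% in ENR+CD, and 1.37% and 2.43% in ENR+CV.

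To compare all genes, the UMIs of a gene summed over the positive cells were divided by the number expected from the Neurog3-free cells of the same libraries at the same total UMIs. A ratio above 1 thus means more UMIs than in Neurog3-free cells, whatever the mix of libraries. Of 3752 genes with at least 20 observed plus expected UMIs, 239 (6.37%) had a ratio of 2 or more, counted as higher, and 65 (1.73%) a ratio of 0.5 or less, counted as lower. For the 45 cells with 3 or more Neurog3 UMIs, 259 of 2174 genes (11.9%) were higher and 96 (4.42%) lower. Of the 239 higher genes, 137 had enough UMIs in these 45 cells, and 133 of them were higher there as well. Of the 65 lower genes, 21 had enough UMIs, and 18 of them were lower there as well. The 45 cells are a subset of the positive cells, so calls at both thresholds are not independent. Without ENR+CD 115 genes were higher, and without ENR+CV 40 were lower. Leaving out a library also leaves fewer genes with 20 UMIs, so these counts do not show on which library the calls rest. The positive cells were chosen by Neurog3 itself, so these counts are descriptions and no test was run.

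Endocrine transcription factors were higher in all 3 libraries. Of 23 measured factors, 11 had enough UMIs and all 11 of these were higher, beside 6.37% of all genes. Their median log2 ratio was 2.96 against 0.10 over all genes. Apart from Sox4, these had fewer than 20 expected UMIs, so they entered the count only through the positive cells. The same limit applies to the counts of other sparse lists below. The list ratio, the observed over the expected UMIs summed over all measured members, does not depend on that entry. For the 23 factors it was 664 UMIs against 170 expected, or 3.90. By library it was 9.62 in both ENR and ENR+CV and 2.70 in ENR+CD, and in ENR+CD it was 4.46 for the cells with 3 or more Neurog3 UMIs.

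Neurod1 stood at 463 CPM in the ENR positive cells (exact Poisson 95% interval 290 to 701), at 500 in ENR+CD (395 to 625) and at 1296 in ENR+CV (861 to 1873). In the Neurog3-free cells it stood at 21.8, 106 and 5.52 CPM, below the interval in each library. The ratio was 7.28 (5.94 to 8.87), and 11.7 for cells with 3 or more Neurog3 UMIs.

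Pax4, a paired-homeobox factor of early endocrine cells, had the highest ratio among the 11 factors with enough UMIs, at 11.8 (6.82 to 19.8). It stood at 105, 84.4 and 185 CPM in ENR, ENR+CD and ENR+CV, against 2.63, 11.2 and 1.04 CPM in Neurog3-free cells. Its 22 UMIs came from 16 cells with at most 3 in any cell, so no cell dominated it.

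Insm1, a zinc-finger repressor required for endocrine differentiation, stood at 168, 110 and 463 CPM in ENR, ENR+CD and ENR+CV, against 10.1, 23.5 and 3.80 CPM, with a ratio of 8.36 (5.57 to 12.3). Nkx2-2, a homeobox factor of endocrine specification, stood at 253, 130 and 555 CPM against 13.8, 29.2 and 3.11, with a ratio of 8.42 (5.88 to 11.8). Rfx6, a winged-helix factor acting downstream of Neurog3, stood at 358, 162 and 231 CPM against 16.6, 33.7 and 2.76, with a ratio of 7.79 (5.52 to 10.8). For each of these genes the positive cells lay above the Neurog3-free cells in all 3 libraries, and the intervals of the levels did not reach the Neurog3-free values.

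Runx1t1, a transcriptional corepressor, stood at 316 CPM in ENR and 169 in ENR+CD against 3.24 and 31.5, but rested on 2 UMIs in ENR+CV. Its ratio was 8.54. Fev, a factor of serotonin-producing cells, had a ratio of 5.84 and St18 a ratio of 5.66, both likewise with 2 UMIs in ENR+CV. Tox3 had a ratio of 3.03 and Sox4 of 2.15, and Sox4 was the most widespread of these factors, in 54 of the 88 cells. Isl1, a LIM-homeobox factor, had a ratio of 8.96, but 17 of its 20 UMIs lay in 3 ENR+CV cells, and it stood at 787 CPM there against 42.1 in ENR and 1 UMI in ENR+CD. In ENR+CD Isl1 was at 11.9 CPM in Neurog3-free cells, so the high ratio belongs to ENR+CV.

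Of the other 12 measured factors, Myt1 had 15 UMIs against 3.19 expected, Neurod2 7 against 0.490, Lmx1a 6 against 0.817, Pax6 10 against 2.51 and Rfx3 7 against 3.19. Foxa1, with 9 UMIs against 7.61 expected, Foxa2 and Etv1 had few UMIs in both groups. Hmx2 and Scrt1 were at 0 in the positive cells, against 0.0872 and 0.0456 expected UMIs. None of these 12 had the 20 UMIs needed for a call.

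**Figure D2:**
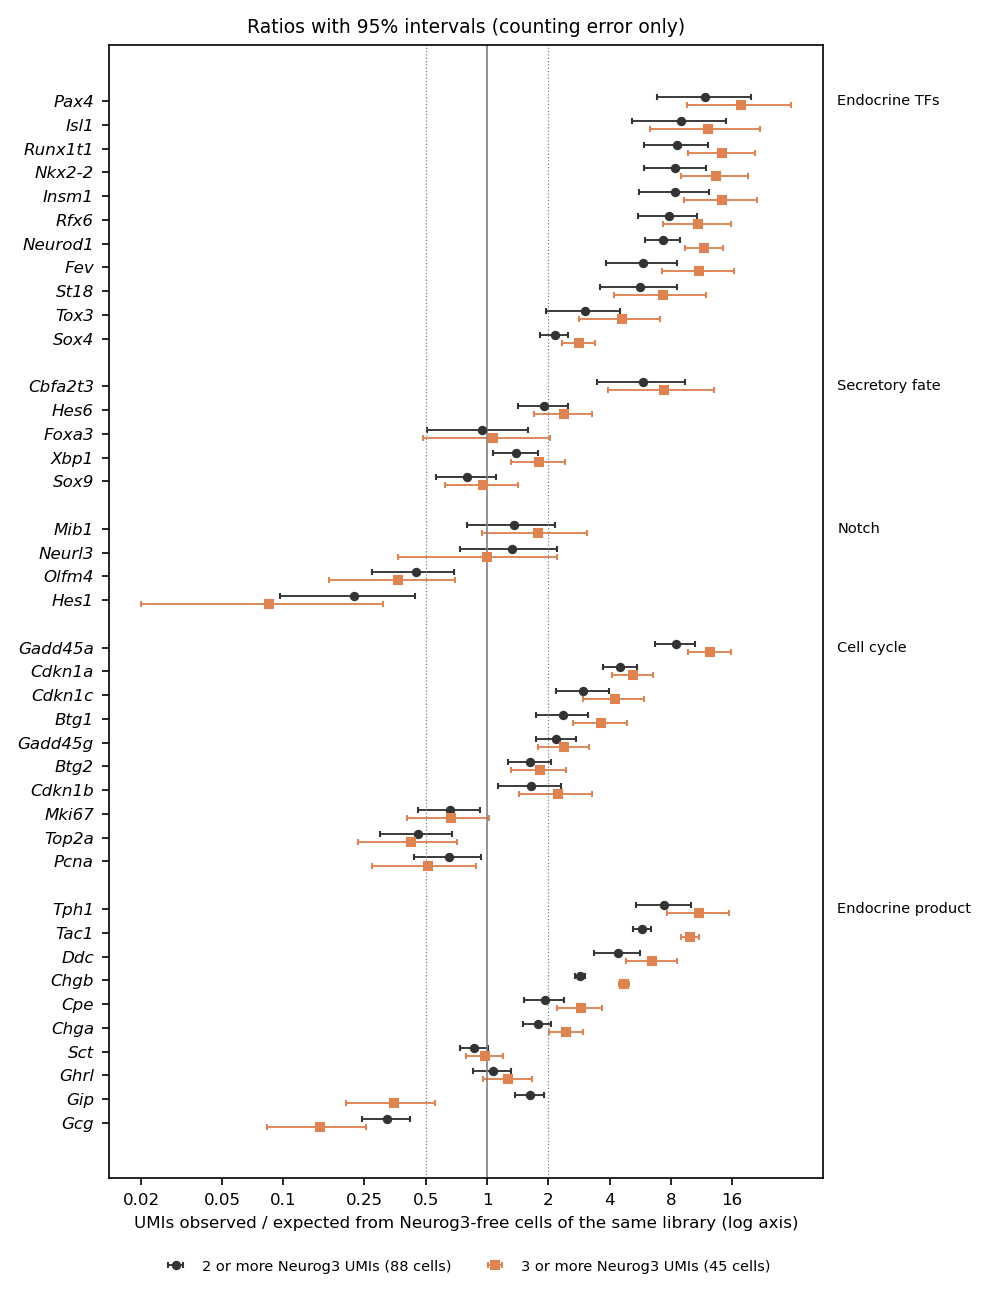
Ratio of UMIs observed in Neurog3-positive cells to those expected from Neurog3-free cells of the same libraries (log axis), with exact binomial 95% intervals cut at 0.02, for all 88 cells (black) and the 45 cells with 3 or more Neurog3 UMIs (orange). The 11 endocrine factors lie at 2.15 or above, Hes1 lies at 0.22, and most ratios move farther from 1 in the 45 cells.

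The levels by Neurog3 UMIs per cell show where the endocrine profile starts. In ENR+CD Neurod1 stood at 106 CPM in Neurog3-free cells, 131 in cells with 1 UMI, 39.9 (8.23 to 117) in cells with 2 and 940 (738 to 1180) in cells with 3 or more. Insm1 went from 23.5 and 28.6 CPM over 0 of 33 cells with 2 UMIs to 216 CPM (126 to 346). Chgb, a granin, stood at 2997, 3356, 1968 and 11658 CPM in the same order. In ENR the cells with 2 UMIs had 710 CPM of Neurod1 (406 to 1153) against 163 in cells with 1 and 21.8 in Neurog3-free cells. However, 1 of these cells held 12 of the 22 Neurod1 UMIs of all ENR positive cells. The ENR cells with 3 or more had 240 CPM (88.1 to 523), and all 6 of their Neurod1 UMIs came from 2 cells. Where the profile starts in ENR thus rests on few cells.

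**Figure D3:**
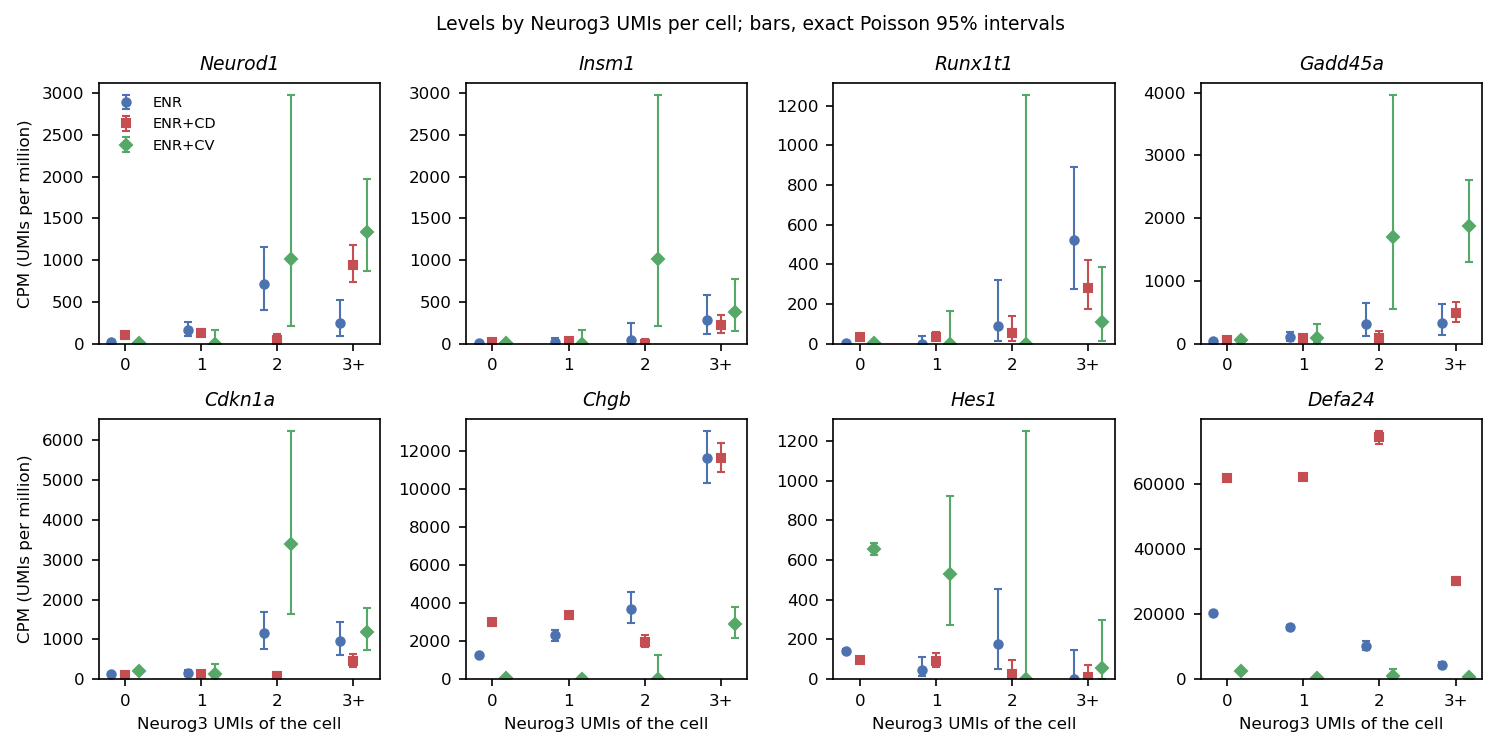
Level in CPM of 8 genes in cells with 0, 1, 2 and 3 or more Neurog3 UMIs, colored by library. Bars are exact Poisson 95% intervals. In ENR+CD the cells with 2 UMIs lie with the Neurog3-free cells for Neurod1, Insm1 and Gadd45a and highest for Defa24, and the cells with 3 or more separate from them.

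Factors of the wider secretory branch shifted less. Of 12 measured, 5 had enough UMIs and 1 was higher (beside 6.37% of all genes), with a list ratio of 1.34. That gene was Cbfa2t3, a corepressor of the same family as Runx1t1, with 21 UMIs in 15 cells against 3.60 expected (ratio 5.84, 3.47 to 9.39). Hes6, an inhibitor of Hes1 activity, had a ratio of 1.90 (1.42 to 2.49), which was 2.40 in the cells with 3 or more Neurog3 UMIs. It stood at 189, 253 and 370 CPM in ENR, ENR+CD and ENR+CV, against 117, 128 and 199 in Neurog3-free cells. Xbp1, a factor of the secretory apparatus, had a ratio of 1.39, Foxa3 of 0.940 and Sox9, a factor of crypt base and Paneth cells, of 0.801.

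Atoh1, the entry factor of the secretory branch, was hardly seen. It had 2 UMIs in the positive cells against 3.14 expected, 0 of them in cells with 3 or more Neurog3 UMIs. Gfi1 had 1 UMI and Spdef 3, against 0.456 and 5.29 expected. At this depth a difference in these factors was not detectable.

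Notch genes split by role. Hes1, the Notch target that represses secretory fate, was among the lowest genes of all. It stood at 84.2 CPM in ENR positive cells (22.9 to 216), 19.5 in ENR+CD (4.02 to 57.0) and 46.3 in ENR+CV (1.17 to 258), against 141, 96.7 and 657 CPM in Neurog3-free cells. The level was lower in each library, although the ENR interval reached the Neurog3-free value. The ratio was 0.223 (0.0963 to 0.441), and with 3 or more Neurog3 UMIs it was 0.0854, with 2 UMIs against 23.4 expected. Olfm4, a stem cell gene that also responds to Notch, had a ratio of 0.448, but its 20 UMIs were all in ENR, at 421 CPM against 861. In ENR+CD, where DAPT blocks Notch cleavage, Olfm4 was at 2.97 CPM in Neurog3-free cells and at 0 in positive cells.

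Hes1 and Olfm4 were the only 2 of the 11 measured receptors and targets with enough UMIs, and the list ratio was 0.442. The receptors themselves were sparse, with 1 UMI of Notch1 against 4.64 expected, 0 of Notch2 against 2.53, 0 of Notch3 against 0.169 and 2 of Notch4 against 0.316, the last pair from a single cell. Rbpj, the DNA-binding partner of cleaved Notch, had 8 UMIs against 3.33 expected (ratio 2.40, 1.01 to 4.89). Nrarp had 2 UMIs, and Hes5, Hey1 and Hey2 were at 0 in the positive cells.

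Ligands and modulators leaned the other way, without a call. The 13 measured genes together had 78 UMIs against 46.3 expected, a ratio of 1.68, and 0 of the 2 with enough UMIs were higher. Mfng, a fringe glycosyltransferase that modifies Notch receptors, had 9 UMIs in 9 cells, all with 3 or more Neurog3 UMIs, against 0.600 expected (ratio 15.0, 5.90 to 35.5). Rfng, another fringe enzyme, had 10 UMIs in 10 cells against 1.83 (ratio 5.46, 2.52 to 10.6). Dll1, a ligand of early secretory cells, had 8 UMIs in 8 cells against 3.43 expected (ratio 2.33, 0.987 to 4.73). Dll4, with 3 UMIs, and Lfng, with 5, had ratios of 0.857 and 0.757. Mib1 and Neurl3, which act in ligand uptake, had ratios of 1.35 and 1.33.

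Genes of growth arrest were higher in the positive cells. Of 12 measured, 9 had enough UMIs, 5 were higher (beside 6.37% of all genes) and none was lower, and the list ratio was 2.45. In cells with 3 or more Neurog3 UMIs 7 of 9 were higher (beside 11.9% of all genes) and the list ratio was 3.15. The list ratio was 4.88, 1.67 and 5.14 in ENR, ENR+CD and ENR+CV.

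Gadd45a, a stress and growth arrest gene, stood at 1851 CPM in ENR+CV (1322 to 2521), 316 in ENR (177 to 521) and 292 in ENR+CD (213 to 391), against 53.5, 43.7 and 56.0 CPM in Neurog3-free cells. It was higher in every library, in 33 of the 88 cells, with a ratio of 8.43 (6.70 to 10.5). Cdkn1a, the cyclin-dependent kinase inhibitor p21, stood at 1052, 266 and 1481 CPM against 130, 110 and 200. Its ratio was 4.49 (3.70 to 5.42), and 3.55 without the ENR+CD cell that held 28 of its 123 UMIs. Without that cell the ENR+CD level was 87.6 CPM (46.7 to 150), below the 110 CPM of Neurog3-free cells, so in that library the direction rests on 1 cell.

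Cdkn1c, the inhibitor p57, stood at 526 CPM in ENR against 20.2, and at 143 and 139 CPM in ENR+CD and ENR+CV against 96.2 and 48.7, so its ratio of 2.97 came mostly from ENR. Btg1, an antiproliferative gene, had a ratio of 2.35 and Gadd45g, a relative of Gadd45a, of 2.19. Cdkn1b (p27) and Btg2 had ratios of 1.65 and 1.62, and Ccng1 of 0.600.

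Proliferation genes were lower or sparse, but not absent. Of 30 measured, 14 had enough UMIs, 2 were lower (beside 1.73% of all genes) and none was higher. The list ratio was 0.609, with 0.608, 0.702 and 0.284 in ENR, ENR+CD and ENR+CV. Top2a, a topoisomerase of dividing cells, had 26 UMIs against 56.6 expected (ratio 0.459, 0.299 to 0.674). Mki67, the Ki-67 proliferation marker, had a ratio of 0.660 (0.459 to 0.921), and Pcna, a replication clamp, of 0.651. A UMI of Mki67 or Top2a was found in 30 of the 88 cells, of which 8 also held Neurod1. Of these 30 cells, 11 were ENR+CD cells with exactly 2 Neurog3 UMIs. No share of Neurog3-free cells at like depth is set beside this count, so it is no comparison. Ccnd1, the G1 cyclin D1 and a Wnt target, was lower at 8 UMIs against 23.5 (ratio 0.340).

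Granins and prohormone processing genes were higher, in ENR+CD only in the cells with 3 or more Neurog3 UMIs. Of 15 measured, 12 had enough UMIs and 6 were higher (beside 6.37% of all genes), and in the cells with 3 or more 10 of 11 were higher (beside 11.9%). The list ratio was 2.48 and 3.96. By library the ratio was 5.45 in ENR and 1.99 in ENR+CD, and 27.2 in ENR+CV, where Chgb in 1 cell made up 54 of the 112 UMIs. The summed level in ENR was 1842 CPM in Neurog3-free cells, 5993 in cells with 2 UMIs and 13684 in cells with 3 or more, and in ENR+CD 4800, 3045 and 15798. Chgb stood at 7870 CPM in ENR (7093 to 8710) and 6925 in ENR+CD (6515 to 7353), against 1261 and 2997 in Neurog3-free cells. In ENR 3 of the 16 positive cells held 89.0% of the 374 Chgb UMIs, and without the highest cell the level was 5244 CPM. Of the 7 ENR cells with 3 or more Neurog3 UMIs, 2 held 143 and 145 of the 291 Chgb UMIs, and 3 held no granin UMI. The ENR values thus rest on few cells. In ENR+CV, where Neurog3-free cells stood at 63.8 CPM, all 54 Chgb UMIs came from 1 cell, and the other 8 positive cells of that library had 0. Chga had a ratio of 1.77 (1.51 to 2.07) and Cpe, a carboxypeptidase that trims prohormones, of 1.92. Pcsk1, a prohormone convertase, stood at 505, 253 and 1064 CPM against 54.0, 187 and 45.2, was found in 8 of the 9 ENR+CV cells, and had a ratio of 2.66 (2.11 to 3.32).

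Hormones differed among themselves. Of 18 measured, 8 had enough UMIs, with 2 higher and 2 lower (beside 6.37% and 1.73% of all genes). The median log2 ratio was 0.04 against 0.10 over all genes, and the list ratio was 1.24. By library the ratio was 3.52 in ENR (3.18 to 3.89) and 0.893 in ENR+CD (0.826 to 0.965), in opposite directions, and 6.10 in ENR+CV on 5 UMIs. In ENR 3 cells held 139, 89 and 76 of the 399 hormone UMIs, so the ENR ratio and its contrast with ENR+CD rest on few cells. In the ENR+CD cells with 3 or more Neurog3 UMIs the list ratio was 1.14 (1.03 to 1.25). Tac1, the tachykinin precursor that enterochromaffin cells make, stood at 5093 CPM in ENR and 1676 in ENR+CD, against 255 and 485 in Neurog3-free cells, and had 1 UMI in ENR+CV. Its ratio was 5.78 (5.24 to 6.36), and 4.31 without the ENR cell that held 135 of its 501 UMIs. Gcg, the proglucagon gene, stood at 21.0 CPM in ENR and 370 in ENR+CD against 402 and 1047, a ratio of 0.322 (0.244 to 0.417). Gcg was lower in both libraries that expressed it.

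Gip, the incretin of K cells, had opposite values in ENR and ENR+CD. It stood at 2820 CPM in ENR against 548, and at 130 CPM in ENR+CD against 446, and the pooled ratio was 1.63. Of its 134 ENR UMIs, 89 came from 1 cell with 2 Neurog3 UMIs. Without that cell the pooled ratio was 0.693, and in cells with 3 or more Neurog3 UMIs it was 0.348. Sct, the secretin gene, had a ratio of 0.868 (0.738 to 1.01) and Ghrl, the ghrelin gene, of 1.07, the latter 0.637 without the cell that held 38 of its 90 UMIs.

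Serotonin genes were higher. Of 7 measured, 5 had enough UMIs and 4 were higher (beside 6.37% of all genes), each with fewer than 20 expected UMIs, with a list ratio of 3.19 and of 4.69 in cells with 3 or more Neurog3 UMIs. Tph1, the enzyme that starts serotonin synthesis in enterochromaffin cells, stood at 694 CPM in ENR and 110 in ENR+CD against 43.1 and 31.2, with 51 UMIs in only 14 cells (ratio 7.42, 5.37 to 10.1). Without its highest cell the ratio was 5.22. Ddc, which makes serotonin from its precursor, had a ratio of 4.38 and was found in 27 cells. Gch1, which makes the cofactor of Tph1, had a ratio of 2.97, and Slc18a1, a vesicular monoamine transporter, of 2.81.

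Vesicle and neuron-like genes were higher as a sum, with a list ratio of 3.07. Of 22 measured, 7 had enough UMIs and were higher (beside 6.37% of all genes), but apart from Tuba1a these entered only through the positive cells. It was 9.63, 2.44 and 6.11 in ENR, ENR+CD and ENR+CV. Syt13, a synaptotagmin, had 36 UMIs in 26 cells against 5.34 (ratio 6.75) and Vwa5b2 34 UMIs in 26 cells against 5.70 (ratio 5.97). Cplx2, a complexin of vesicle release, had a ratio of 2.86 and Tuba1a, a neuron-type tubulin, of 2.16.

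Of all genes with 20 UMIs in at least 10 positive cells and a ratio above 1 in both ENR and ENR+CD, the 10 highest were Nefm, Pax4, Gfra3, Pak3, Runx1t1, Gadd45a, Nkx2-2, Insm1, Fgd2 and Rfx6. All 10 had fewer than 20 expected UMIs, so they met this rule only through the cells in which they are high. The 4 that stand on no list fixed here were as follows. Nefm, a neurofilament subunit, had 42 UMIs in 13 cells against 2.19 expected (ratio 19.2, 12.8 to 28.5). It stood at 379, 71.5 and 602 CPM in ENR, ENR+CD and ENR+CV, against 7.28, 10.4 and 11.0. Without its highest cell the ratio of Nefm was 14.8 (9.45 to 22.8). Gfra3, a receptor of the GDNF family, had 40 UMIs in 19 cells (ratio 11.5, 7.75 to 16.7). Pak3, a kinase of the p21-activated family, also had a ratio of 11.5, but 13 of its 15 cells were in ENR+CD. Without its highest cell that ratio was 8.86. Fgd2, an exchange factor for Cdc42, had 36 UMIs in 21 cells (ratio 7.97).

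The 10 lowest by the same rule were Ccl25, Hes1, Fabp1, Lsm3, Ugt2b34, Gcg, Ccnd1, Pnliprp2, Fabp2 and Stra13. Ccl25, an epithelial chemokine, stood at 84.2 CPM in ENR against 477 and at 0 in ENR+CV against 108 (ratio 0.179, 0.0581 to 0.419). Fabp1 and Fabp2, fatty acid binding proteins of enterocytes, had ratios of 0.239 and 0.371. Fabp1 was at 0 UMIs in ENR+CD, where the Neurog3-free cells were at 24.5 CPM, and its ratio was 1.80 when cells with 1 Neurog3 UMI were counted as positive.

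**Figure D4:**
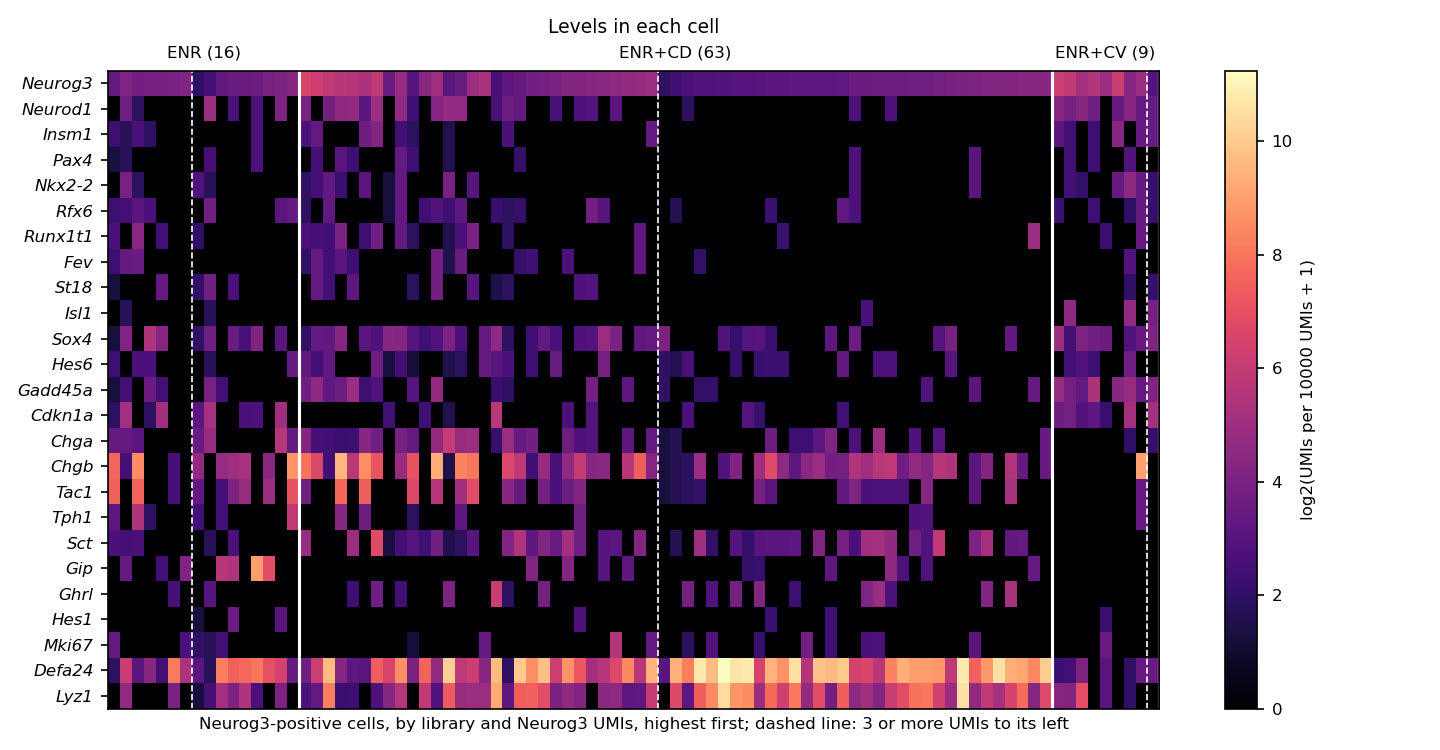
Level of 25 genes in each of the 88 Neurog3-positive cells as log2 of UMIs per 10000 plus 1, with cells ordered within each library by Neurog3 UMIs and a dashed line between cells with 3 or more and with 2. Right of that line in ENR+CD the rows of endocrine factors are nearly empty while Defa24 and Lyz1 are bright, and in ENR+CV the Chgb row is dark for all but 1 cell.

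Paneth genes differed with the threshold. Of 26 measured antimicrobial genes, 25 had enough UMIs, and among all 88 cells 1 was lower, none was higher, and the list ratio was 0.752. In the cells with 3 or more Neurog3 UMIs 22 of 25 were lower, beside 4.42% of all genes, and the list ratio was 0.387. The median antimicrobial share of a cell in ENR+CD was between 18.7% and 20.7% in cells with 0, 1 and 2 Neurog3 UMIs and 2.34% in cells with 3 or more, and its range over the last was 0.498% to 28.6%. Defa24, an alpha-defensin, stood at 61614 CPM in Neurog3-free ENR+CD cells, 74218 in cells with 2 Neurog3 UMIs and 30086 in cells with 3 or more. Reads of near-identical alpha-defensin genes may be split between copies, so single members are uncertain. Lyz1, the Paneth lysozyme, had a pooled ratio of 1.04 and one of 0.665 in cells with 3 or more.

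Among the 33 ENR+CD cells with 2 Neurog3 UMIs 8 were Paneth-rich (24.2%, 11.1 to 42.3), close to the 21.4% of Neurog3-free ENR+CD cells. Among the 30 with 3 or more none was (interval up to 11.6%). The part of free Neurog3 RNA in the cells with 2 was not tested. For the list of factors, the ratio in ENR+CD was 2.70 over all 63 positive cells and 4.46 over these 30.

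Markers of other classes were mixed. Over all genes 6.37% were higher and 1.73% lower, and each count below rests on few genes. Of the 12 goblet genes 7 had enough UMIs and 1 was higher, Zg16, with 47 of its 55 UMIs in 1 cell, and the list had a ratio of 0.823 that was 0.590 in cells with 3 or more Neurog3 UMIs. Spink4, of goblet and other secretory cells, had a ratio of 0.627, Agr2 of 0.564 and Tff3, a trefoil peptide, of 1.04. Of 17 enterocyte genes 8 had enough UMIs, 3 were lower and the list ratio was 0.695, but Sis, the sucrase-isomaltase gene, had a ratio of 1.78 (1.40 to 2.25) and Krt20 of 1.70. In cells with 3 or more Neurog3 UMIs both were higher, at 2.87 and 2.19, and the enterocyte list ratio in ENR+CD was 1.40 (1.13 to 1.73). Of 13 stem cell genes 10 had enough UMIs, 2 were lower and the list ratio was 0.821, whereas Prom1, a membrane protein of crypt cells, had a ratio of 1.66 and was higher, at 2.08, in cells with 3 or more Neurog3 UMIs. Lgr5, the stem cell receptor, had 19 UMIs against 21.8 expected. Of 15 Wnt feedback genes 7 had enough UMIs and 1, Ccnd1, was lower, with a list ratio of 0.761. Of 14 stress genes 12 had enough UMIs and 0 were called, with a list ratio of 1.01.

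Tuft cell genes had 6 UMIs over 11 measured genes against 7.94 expected, with Dclk1 and Trpm5 among the 8 at 0. Markers of immune cells had 0 UMIs, of stroma and endothelium 4 against 3.21 expected, and of neurons and glia 5 against 3.33. Of the 9 genes of neurons and glia, 6 were at 0, among them Sox10, S100b, Gfap and Prph, and Elavl4 had 3 UMIs, Ret 1 and Uchl1 1.

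Neurog3-positive cells were next compared with the cells most like them, the 2022 Neurog3-free cells with 2 or more UMIs of Chga and Chgb. There were 542, 1473 and 7 of these in ENR, ENR+CD and ENR+CV. In ENR+CD 270 of 495 Paneth-rich cells (54.5%) also met this limit, so the ENR+CD reference is a mixture. Of 3776 genes, 172 (4.56%) were higher in the Neurog3-positive cells and 61 (1.62%) lower. Without ENR+CD 81 were higher, and without ENR+CV 40 were lower. Chga and Chgb chose the reference and get no reading.

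The cascade factors were higher against this reference as well, 10 of 12 with enough UMIs (beside 4.56% of all genes) and with a list ratio of 2.82. Pax4, Runx1t1, Rfx6, Nkx2-2 and Insm1 had fewer than 20 expected UMIs here too, so their entry rests on the positive cells. Neurod1 had 127 UMIs against 32.9 expected (a ratio of 3.86), at 463 CPM against 78.8 in ENR and 500 against 143 in ENR+CD. Pax4 had the highest ratio among genes with 20 UMIs in at least 10 positive cells and a ratio above 1 in both ENR and ENR+CD (interval 4.62 to 13.4), with 105 CPM against 7.50 in ENR and 84.4 against 15.5 in ENR+CD. Runx1t1, Rfx6, Nkx2-2 and Insm1 had ratios of 4.79, 4.64, 4.05 and 3.95, and Tox3, at 1.83, was not called. Pak3, Fgd2, Gadd45a and Igsf8, an immunoglobulin superfamily protein, followed Pax4 by this rule with ratios of 7.79, 5.53, 5.35 and 5.19. Cdkn1a had a ratio of 4.67, with 1052 CPM against 151 in ENR and 266 against 111 in ENR+CD, the latter 87.6 without 1 cell.

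Products of mature endocrine cells were mixed. Of 9 hormones with enough UMIs 1 was higher and 3 were lower (beside 4.56% and 1.62% of all genes), with a list ratio of 0.774. Of 12 granin and processing genes 1 was higher and 1 lower, with a list ratio of 1.23. Serotonin genes had a list ratio of 1.99. In cells with 3 or more Neurog3 UMIs the ratios of these lists were 0.909, 1.75 and 2.80. The highest hormone was Tac1, at a ratio of 3.28 (2.97 to 3.61), and Tph1 was at 3.36 (2.45 to 4.53). Nts, the neurotensin gene, had 2 UMIs against 26.8 expected (ratio 0.0747, 0.00902 to 0.271), with 0 UMIs in ENR against 361 CPM in the reference. Afp, the alpha-fetoprotein gene, had 3 UMIs against 61.6 (ratio 0.0487), all in ENR, where the reference stood at 1284 CPM. Reg4, a secreted lectin, stood at 168 CPM against 4421 in ENR and at 500 against 1287 in ENR+CD (ratio 0.207, 0.165 to 0.256). Gcg was at a ratio of 0.210 and Ccl25 at 0.188. Sct had a ratio of 0.545 (0.460 to 0.641), just above the limit for a call.

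**Figure D5:**
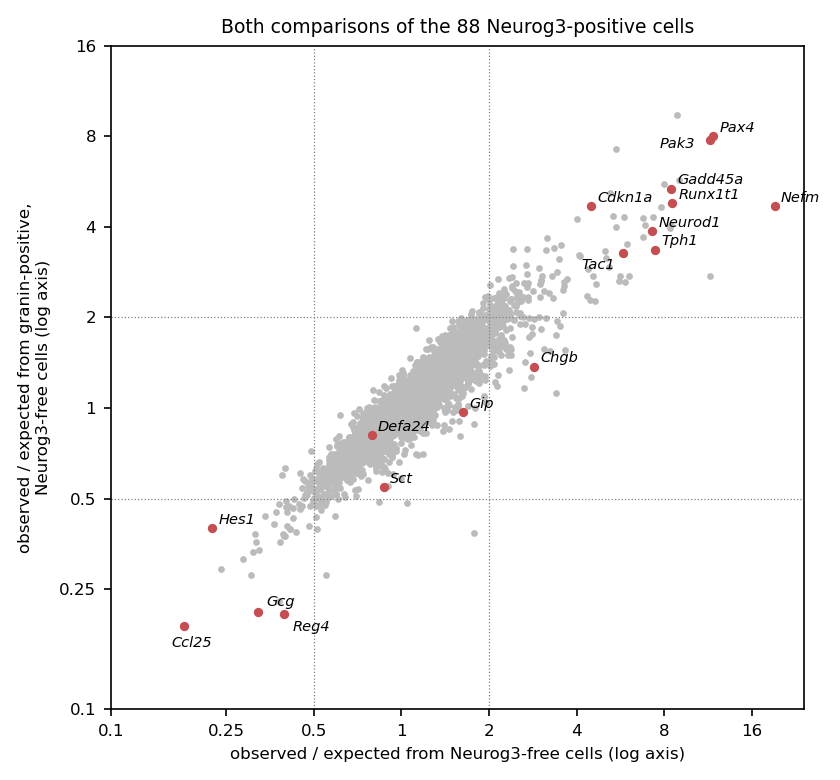
Ratio of each of 3666 genes in the 88 Neurog3-positive cells against Neurog3-free cells (horizontal, log axis) and against granin-positive Neurog3-free cells (vertical, log axis), with dotted lines at 0.5 and 2. Pax4, Pak3, Gadd45a, Runx1t1 and Neurod1 lie above 2 on both axes, Gcg, Reg4 and Ccl25 below 0.5 on both, and Chgb lies above 2 only on the horizontal axis. The positive cells enter both axes, so the 2 ratios are not independent.

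Between the media, ENR+CD positive cells were set against ENR positive cells, with the same ratio in Neurog3-free cells beside it. Of 1746 genes with 20 or more UMIs in the pair, 263 (15.1%) were higher in ENR+CD and 184 (10.5%) lower. A fold of the same size and direction was present between the Neurog3-free cells of the 2 media for 87 of the 263 and 47 of the 184. When CPM was computed without the antimicrobial genes, the split was 332 higher and 123 lower. Without the ENR+CD cells of exactly 2 Neurog3 UMIs it was 162 and 93. These counts compare 63 with 16 cells of single libraries.

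Of the cascade factors, Neurod1 compared differently at each threshold. It was at 500 CPM in ENR+CD and 463 in ENR, a ratio of 1.08 (0.665 to 1.82), although in Neurog3-free cells the ratio was 4.84. Without the ENR cell that held 12 of the 22 Neurod1 UMIs there, Neurod1 in ENR was at 231 CPM (111 to 425). In cells with 3 or more Neurog3 UMIs it was at 940 CPM in ENR+CD and 240 in ENR, a ratio of 3.91 (1.72 to 11.0), with 6 UMIs in ENR. Pax4 had a ratio of 0.803 (0.269 to 2.88), Insm1 of 0.656 (0.268 to 1.76), Nkx2-2 of 0.514 (0.240 to 1.15) and Sox4 of 0.768 (0.530 to 1.13). These intervals include 1 and also 2-fold lower levels for Pax4, Insm1 and Nkx2-2. Rfx6 was lower in ENR+CD, at 162 against 358 CPM (ratio 0.454, 0.236 to 0.896), while in Neurog3-free cells it was 2.03-fold higher there. St18 was also lower, with a ratio of 0.393 (0.166 to 0.956), and Runx1t1 and Fev had ratios of 0.535 (0.273 to 1.09) and 0.533 (0.241 to 1.24). In cells with 3 or more the ratio was 0.635 for Rfx6 (0.284 to 1.52), 1.48 for St18 (0.413 to 8.04), 0.771 for Insm1, 0.816 for Nkx2-2 and 1.75 for Pax4, on at most 10 ENR UMIs each.

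Hormone genes also differed. Tac1 was at 1676 CPM in ENR+CD and 5093 in ENR (ratio 0.329), and Tph1 at 110 and 694 (ratio 0.159, 0.0831 to 0.294). Of the 242 Tac1 UMIs in ENR, 2 cells held 135 and 73. The same 2 cells held 6 and 16 of the 33 Tph1 UMIs, so both ENR values rest on few cells. Gip was at 130 and 2820 (ratio 0.0461), with 89 of the 134 ENR Gip UMIs in 1 cell. Sct was at 994 CPM in ENR+CD and 210 in ENR (ratio 4.72), below the 14.5-fold of Neurog3-free cells, and Ghrl at 559 and 84.2 (ratio 6.64, 2.50 to 24.9). For Ghrl the direction turned when cells with 1 Neurog3 UMI were included, with a ratio of 0.531. Cdkn1a was at 266 and 1052 CPM (ratio 0.253, 0.163 to 0.390), and Gadd45a at 292 and 316 (ratio 0.926).

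The 5 genes with the highest ratios in ENR+CD by the rule were at 0 in ENR, namely Gm14850, Gm15293, 2010107G23Rik, Neb and Reg3b. Reg3b, an antimicrobial lectin, had 83 UMIs in 34 ENR+CD cells (539 CPM), and in Neurog3-free cells it was 31.4-fold higher in ENR+CD. Gm14850 and Gm15293, on the list of Paneth antimicrobials, had 38 and 52 UMIs, with 4.09-fold and 15.3-fold in Neurog3-free cells. 2010107G23Rik had 37 UMIs in 16 ENR+CD cells (240 CPM) and 8 in 4 ENR+CV cells, while the Neurog3-free cells stood at 24.5 CPM in ENR and 22.3 in ENR+CD, a ratio of 0.911. The difference in this gene thus had no counterpart in Neurog3-free cells. The 5 lowest were Olfm4, Gip, Pfkl, Prap1 and Amica1. Olfm4 was at 0 of 63 cells in ENR+CD and 421 CPM in ENR. Prap1, with 4 UMIs in ENR+CD and 19 in ENR, and Amica1, at 32.5 against 400, were also lower in Neurog3-free cells, by ratios of 0.103 and 0.206.

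The 9 ENR+CV positive cells are given beside the others without calls. They held up to 10 of the 22 endocrine factors with a median of 5, against a median of 3 in ENR and 1 in ENR+CD. Among cells with 3 or more Neurog3 UMIs the medians were 4.5 in ENR+CV and 4 in both other libraries. Of the 9 cells, 7 held Neurod1 without 2 granin UMIs, 1 held both and 1 neither. In ENR the same classes held 1, 5 and 4 of 16 cells, with 6 holding granins only, and in ENR+CD 3, 18 and 10 of 63, with 32 holding granins only. The ENR+CV cells had 5 hormone UMIs in all, and 6 of the 9 had none. The median antimicrobial share of Neurog3-free ENR+CV cells was 0.128%. In Neurog3-free cells of ENR+CV, 7 of 970 held 2 granin UMIs, and at least 3 of the 22 factors were found in 6 of these 7.

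Per cell, the leading hormone of the cells with at least 5 hormone UMIs was Gip in 5 and Tac1 in 5 of 10 ENR cells. Among 36 such ENR+CD cells it was Sct in 11, Tac1 in 10, Gcg in 6, Ghrl in 5, Cck in 3 and Gip in 1. In ENR+CV no positive cell reached 5 hormone UMIs. The highest cell by Neurog3, an ENR+CD cell with 32 Neurog3 UMIs of 3460, held 10 endocrine factors, 93 granin UMIs and 13 hormone UMIs. The ENR cells with 7 Neurog3 UMIs held 6 and 10 of the factors, with 150 and 6 granin UMIs, so granin content varied between cells of like Neurog3 count.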

How the data were processed

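Transcripts of single organoid cells were counted by Seq-Well, in 3 libraries. The authors aligned reads to mm10 through a Drop-seq portal, grouped them by cell barcode and collapsed them by UMI. bcl2fastq, STAR and Seurat are named in the submitters' processing notes, and no version or gene annotation is given in the sources used here. The deposited counts are raw UMIs per gene and cell; the merged table was used, and deposited counts of reads and UMIs per library served for barcodes under 1000 UMIs, reads per UMI and the identity of libraries.

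Neurog3-positive cells, marker lists and comparisons were chosen with earlier results of these data known. UMIs were summed over cells, since cells are not replicates. CPM have exact Poisson intervals, shares Clopper-Pearson intervals and ratios exact binomial intervals, all at 95%. With 1 library per condition no test was run. Genes needed 20 observed plus expected UMIs and a ratio of 2 or 0.5. A reference under 3 UMIs gives no ratio. Library depths were 2942252 to 5095089 UMIs.

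Genes named are Neurog3, members of the lists of endocrine factors, secretory fate, Notch and cell cycle exit, the 4 members with most UMIs of each of the other lists, the 10 highest and lowest ratios against Neurog3-free cells, and the 5 highest and lowest of the other comparisons, with Cck and Dclk1, Trpm5 and other members added after their values were seen. Coordinates are from GENCODE vM21, which holds 21756 of 23271 symbols (93.5%). The ratio procedure was tested on simulated data. Alternatives were other Neurog3 minima, other UMI filters, thinning, leaving out a library, totals without antimicrobial genes, depth bins and, chosen after seeing the data, leaving out the cell with most UMIs of a gene. Python 3.11.15, NumPy 2.4.6, SciPy 1.17.1, pandas 2.3.3 and matplotlib 3.10.9 were used. Some members of the lists are not reported here by name.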

Additional observations from a re-analysis of the deposited data

Results flagged for a closer look

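Gip was 5.15 times as high in the Neurog3-positive as in the Neurog3-free cells of ENR and 0.291 times in ENR+CD, opposite directions. The difference was not tested, since each medium is 1 library, and 1 ENR cell held 89 of the 134 Gip UMIs.

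Lyz1 had a ratio of 0.364 in ENR and 2.69 in ENR+CV, again in opposite directions. The difference was not tested, and in ENR+CV 1 of 5 cells held 39 of the 51 UMIs. Without that cell the ENR+CV ratio was 0.742, so the opposite direction rests on 1 cell.

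Barcodes under 1000 UMIs, outside all comparisons, carried Neurog3 at 35.1 CPM in ENR (27.7 to 43.9), above the 19.2 CPM of the kept cells (15.6 to 23.4), and at 105 in ENR+CD (93.8 to 118), where the interval overlaps that of the kept cells (97.2, 88.3 to 107). In ENR+CV they carried 6.18 CPM, below the 29.2 CPM of the kept cells. At least 2 Neurog3 UMIs were found in 30 of 5493 such ENR+CD barcodes, 14 of 3345 in ENR and 0 of 3907 in ENR+CV.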

How the results depend on the processing

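Against Neurog3-free cells, the 239 higher and 65 lower genes became 977 and 551 with a filter of 5 UMIs and 2363 and 10387 with none. With 1 or more Neurog3 UMIs 142 were higher and without ENR+CD 115, while 40 were lower without ENR+CV, 104 over all cells of the merged table and 107 without the ENR+CD cells of exactly 2 Neurog3 UMIs (chosen after seeing the data). Against granin-positive cells, 829 were higher and 612 lower with a filter of 5 UMIs, 81 higher without ENR+CD and 40 lower without ENR+CV. Between ENR+CD and ENR, the counts were 660 and 478 with 1 or more UMIs, 143 and 70 with 3 or more, 1522 and 1135 with a filter of 5 UMIs, and 162 and 93 without the ENR+CD cells of exactly 2. The share of positive cells was 2.48% and 10.3% in ENR and ENR+CD with 1 or more UMIs, 0.275% and 1.26% with 3 or more, and 0.236% and 1.43% after thinning. Thinned levels were 6556 CPM for Chgb in ENR cells with 2 Neurog3 UMIs, 0 for Neurod1 in ENR cells with 3 or more, 2364 for Chgb in ENR+CD cells with 2 and 6625 for Chgb in ENR+CV cells with 3 or more. Fabp1 turned to a ratio of 1.80 and Ghrl between media to 0.531 with 1 or more Neurog3 UMIs. The other counts, shares and levels run (49 values) stayed within 1.5 times of the main count or within its counting interval. Of the single-gene ratios recomputed, 275 of 408 against Neurog3-free cells, 116 of 152 against granin-positive cells and 53 of 70 between media stayed within the counting interval. The cause was not tested. In 4 depth bins, 2 positive cells had no granin-positive reference. No paired analysis was possible because each condition is 1 library. Depth limits all sparse factors: Atoh1, Gfi1 and the Notch receptors had too few UMIs for any difference to be seen.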
